A study of Mus musculus with 6 samples.

Results

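The rows described here are fragments of C/D box small nucleolar RNAs (snoRNAs) in small RNA libraries of mouse hippocampus. They were chosen by a rule that used measured values. A row had to carry a name starting with Snord, and its raw counts summed over the 6 libraries had to reach at least 100. Rows within 2 imprinted snoRNA regions were left out, one on chromosome 7 and one on chromosome 12. Of 109108 rows, 198 carried such a name and 141 were members. Another 28 rows fell below the minimum and 29 lay in the left-out regions. Just inside the minimum were Snord23 with 111 counts, SNORD16.2 with 161 and Snord7 with 209, and just outside it were SNORD12.1 with 93 counts and SNORD63.2 with 29.

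The study compared wild-type (WT) mice with Dicer1-ifKO mice, in which Dicer1, the RNase that cuts miRNA precursors, was deleted in the adult forebrain. All mice were C57BL/6 males of 3 months that were homozygous for the floxed Dicer1 allele and were killed 3 weeks after tamoxifen. The Dicer1-ifKO mice also carried CaMKIIa-creERT2, a tamoxifen-inducible Cre driven in excitatory forebrain neurons, so interneurons, glia and vessels of the hippocampus were not targeted. Each genotype had 3 libraries, and each library pooled RNA of 3 mice. In whole-tissue RNA, fewer cells of a type and less RNA per cell cannot be told apart.

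C/D box snoRNAs are short nucleolar RNAs, most of them cut from introns of host genes. A C box near the 5′ end and a D box near the 3′ end bind the proteins Nop56, Nop58, Snu13 and the methyltransferase fibrillarin (Fbl), and the bases next to the D box pair with ribosomal RNA (rRNA) or small nuclear RNA to place a 2′-O-methyl group. A few members take part in cutting the rRNA precursor instead, and some have no known target. Small RNA libraries recover pieces of them beside miRNAs.

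The sequences below are those of some of the most abundant members, of 3 members whose values differed between libraries (Snord83b, SNORD16.1 and Snord53), and of the 2 members that contain a row annotated as a miRNA (SNORD20.1 and Snord33). They are GENCODE M21 transcripts on GRCm38, 5′ to 3′, in DNA letters. In the first 7, capitals mark the exact C box motif TGATGA where it occurred within 25 nt of the 5′ end, and the D box motif CTGA within 25 nt of the 3′ end. In the last 2, capitals mark the stretch that the annotation also lists as a miRNA.
Snord49a: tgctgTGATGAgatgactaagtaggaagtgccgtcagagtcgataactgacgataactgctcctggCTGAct
Snord12: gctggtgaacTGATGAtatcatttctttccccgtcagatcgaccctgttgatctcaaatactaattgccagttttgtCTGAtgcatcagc
Snord99: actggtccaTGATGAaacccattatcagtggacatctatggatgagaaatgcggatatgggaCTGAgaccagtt
SNORD81.2: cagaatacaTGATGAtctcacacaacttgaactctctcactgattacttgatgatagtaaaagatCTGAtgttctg
Snord83b: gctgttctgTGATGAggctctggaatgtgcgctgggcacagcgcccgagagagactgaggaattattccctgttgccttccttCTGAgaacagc
SNORD16.1: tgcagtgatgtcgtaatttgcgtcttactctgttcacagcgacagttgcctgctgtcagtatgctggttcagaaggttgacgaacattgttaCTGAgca
Snord53: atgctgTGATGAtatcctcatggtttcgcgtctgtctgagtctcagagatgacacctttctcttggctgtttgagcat
SNORD20.1: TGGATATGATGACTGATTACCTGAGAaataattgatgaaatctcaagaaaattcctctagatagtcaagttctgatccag
Snord33: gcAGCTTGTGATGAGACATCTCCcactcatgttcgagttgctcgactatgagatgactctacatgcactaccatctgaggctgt

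On GRCm38 these lie at chr11:62603450-62603521 on the plus strand (Snord49a, in an intron of 2410006H16Rik), chr2:167065276-167065365 plus (Snord12, Zfas1) and chr4:132310691-132310764 plus (Snord99, Snhg12). SNORD81.2 lies at chr1:161038308-161038383 plus (Gas5), Snord83b at chr15:80078498-80078591 minus (Rpl3), SNORD16.1 at chr9:64175423-64175521 plus (Rpl4) and Snord53 at chr17:71640879-71640956 plus (Wdr43). SNORD20.1 lies at chr1:86352008-86352087 minus (Ncl) and Snord33 at chr7:45126864-45126947 minus (Rpl13a).

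The boxes were looked for in the 134 members whose coordinates matched a GENCODE transcript exactly. CTGA stood within 25 nt of the 3′ end in 133 of them (99.3%), and TGATGA within 25 nt of the 5′ end in 87 (64.9%). Snord53 was the member without the D box letters, and SNORD16.1 had tgatgt in place of the exact C box. Of 67 H/ACA snoRNA rows with at least 100 counts, the other large snoRNA class, 0 held TGATGA and 10 (14.9%) held CTGA in the same windows. The label of the members as C/D box snoRNAs was thus met by their letters at the D box, and for a part of them at the exact C box.

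Of the 141 members, 130 lay in an intron of at least 1 transcript of an annotated gene. Those host genes were 67 in number, with 94 members in protein-coding and 36 in noncoding hosts. Of these hosts, 16 were ribosomal protein genes, which held 35 members. The other 11 lay outside annotated genes, among them Snord118 (U8), Snord13 (U13) and Snord104. Names in the files were often family names, so that the row SNORD14.2 is Snord14c in GENCODE, and SNORD16.1 is Snord16a.

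One part of the label did not hold. Rows of the Snord113 family, 5 in number, between chr12:109680800 and chr12:109686869, passed the rule because they lie past the end of the left-out region, yet they sit between Dlk1 and Dio3, the genes that bound the imprinted chromosome 12 domain. They were SNORD113.3, SNORD113.5, SNORD113.7, SNORD113.8 and SNORD113.12, and they held 0.0669% of the member counts. Their summed level was 120 ± 17.5 CPM in WT mice and 110 ± 4.60 CPM in Dicer1-ifKO mice (SD, n = 3), where CPM is the count per 1000000 counts of a library after scaling. The median change and the share of all counts are given below also without them.

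The libraries held between 39391721 and 54628982 counts once rows with the same gene name, chromosome, strand and counts were taken once. Where rows lay over one another, a read was counted in each of them. Counts were apparently made without regard to strand: in the 3 cases where a member of at least 1000 counts lay within a longer row of the opposite strand, that row held at least the member's counts (Snord4a and Snord42a within Tlcd1, and SNORD60.1 with 65820 counts within Rab26 with 65832). WT replicate 1 stood apart: mitochondrial tRNA took 0.433% of its counts against 0.163% to 0.255% elsewhere, and 13 of 962 rows with a mean over 20 CPM differed more than 4-fold from their median over the libraries, none of them members. All 5 neuronal marker miRNAs were present at a summed 3117 to 4012 CPM in WT and 2607 to 3288 CPM in Dicer1-ifKO, while the liver and muscle markers summed to 4.35 to 6.59 CPM over all 6 libraries. Of the other marker lists, 2 did not overlap between the genotypes: the 5 choroid plexus miRNAs summed to 322 to 348 CPM in WT and 221 to 240 CPM in Dicer1-ifKO, and the 4 of microglia and leukocytes to 148 to 181 and 188 to 206 CPM. None of their rows was called, and their part in the values of the members was not tested. The Dicer1 gene span held 32 to 47 counts per library, 45, 33 and 47 in WT and 37, 32 and 35 in Dicer1-ifKO. Small RNA reads over a whole gene span do not resolve the floxed exon, so these counts do not check the deletion.

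Fragments of the members were the largest class of short RNA in these libraries. They summed to 48842543 counts, and took 16.4%, 17.4% and 16.7% of all counts in the WT libraries and 17.2%, 17.4% and 17.1% in the Dicer1-ifKO libraries. The means were 16.9% ± 0.515 and 17.3% ± 0.165 (SD, n = 3). The groups overlapped, and the difference of 0.385 percentage points was within the spread (two-sided exact permutation p = 0.4, or 0.8 when multiplied by the 2 shares tested, smallest possible p 0.1). Without the Snord113 rows of chromosome 12 the means were 16.9% and 17.2%.

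Because long gene spans count the same reads again, the share was also taken over rows of at most 400 nt. It was then 58.3%, 63.7% and 60.2% in WT and 61.7%, 64.2% and 63.1% in Dicer1-ifKO (exact permutation p = 0.3). Relative to the summed miRNA rows the members stood at 274%, 318% and 253% in WT and at 292%, 348% and 329% in Dicer1-ifKO. These groups overlapped as well, with a mean of 323% in Dicer1-ifKO against 282% in WT (exact permutation p = 0.2). The smallest possible p of this test was 0.1 for each share, so no outcome could have passed the threshold used for the calls. The permutation tests therefore do not decide whether the shares differed. Among all snoRNA counts the members held 98.6% ± 0.0669 in WT and 98.6% ± 0.0722 in Dicer1-ifKO (exact permutation p = 0.5). Since the members hold nearly all snoRNA counts, this share could move little and does not test a change against other snoRNAs.

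**Figure D1:**
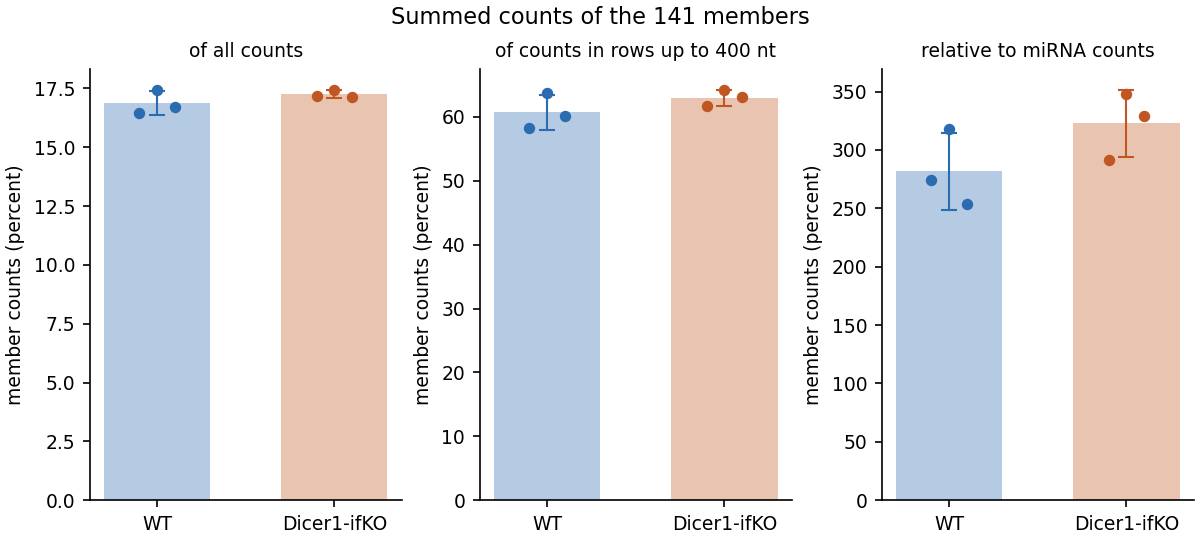
Summed counts of the 141 members in percent of all counts, of the counts in rows of at most 400 nt and of the miRNA counts, for WT and Dicer1-ifKO. Bars are means, error bars SD over 3 libraries and points single libraries; the 2 groups overlap in each panel, at 16.4% to 17.4% of all counts.

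The counts were held by few members. Snord49a alone took 12.4% of the member counts, the 10 most abundant took 51.6% and the 16 with over 1000000 counts took 64.8%. At the other end, 126 members had at least 1000 counts. Shorter members had more counts (Spearman rho -0.36 between row length and counts over the 141 members, which share the same libraries). The order of the members was close to the same in each library: Spearman's rho over members was 0.988 to 0.998 for the 6 pairs of libraries of a genotype and 0.991 to 0.998 for the 9 pairs across genotypes.

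Snord49a, an rRNA guide, stood at 18004, 25008 and 19027 CPM in the WT and 20899, 22694 and 22049 CPM in the Dicer1-ifKO libraries. The Dicer1-ifKO libraries lay inside the range of the WT libraries. Its log2 change (Dicer1-ifKO over WT) was 0.08 ± 0.14 (SE), with a 95% interval from -0.21 to 0.38.
Snord12 stood at 8612, 10548 and 12284 CPM in the WT and 10474, 13336 and 12221 CPM in the Dicer1-ifKO libraries. Its change was the highest of the 10 most abundant, 0.20 ± 0.15, and the groups overlapped.
Snord99 gave 7226, 10276 and 8670 CPM in the WT and 8207, 9163 and 8076 CPM in the Dicer1-ifKO libraries. SNORD81.2, a Gas5 snoRNA, gave 8213, 9999 and 8662 CPM in the WT and 7244, 8669 and 7832 CPM in the Dicer1-ifKO libraries, a log2 change of -0.18 ± 0.13. Both overlapped between the groups, SNORD81.2 only through its highest Dicer1-ifKO library.

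Others of the 10 most abundant were SNORD18.3 (log2 change -0.10), SNORD50.1 (-0.08), SNORD58.2 (-0.03), SNORD24.1 (0.06) and Snord83b, which is described below. SNORD50.1 cannot be counted on its own: a row named CT025673.2, with the identical sequence, held 1701219 counts beside its 1704528. In all, 12 members had a row of at least 95% identity elsewhere, among them the pairs SNORD14.1 and SNORD14.2, SNORD62.1 and SNORD62.2, SNORD103.1 and SNORD103.2, and Snord1b and Snord1c. Another was SNORD113.11 on chromosome X, with 375 counts. It had 97.3% identity with SNORD113.15, a row of the left-out imprinted region of chromosome 12 with 110793 counts. No source used here says how the authors counted reads that map to several places, so values of these members are uncertain.

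**Figure D2:**
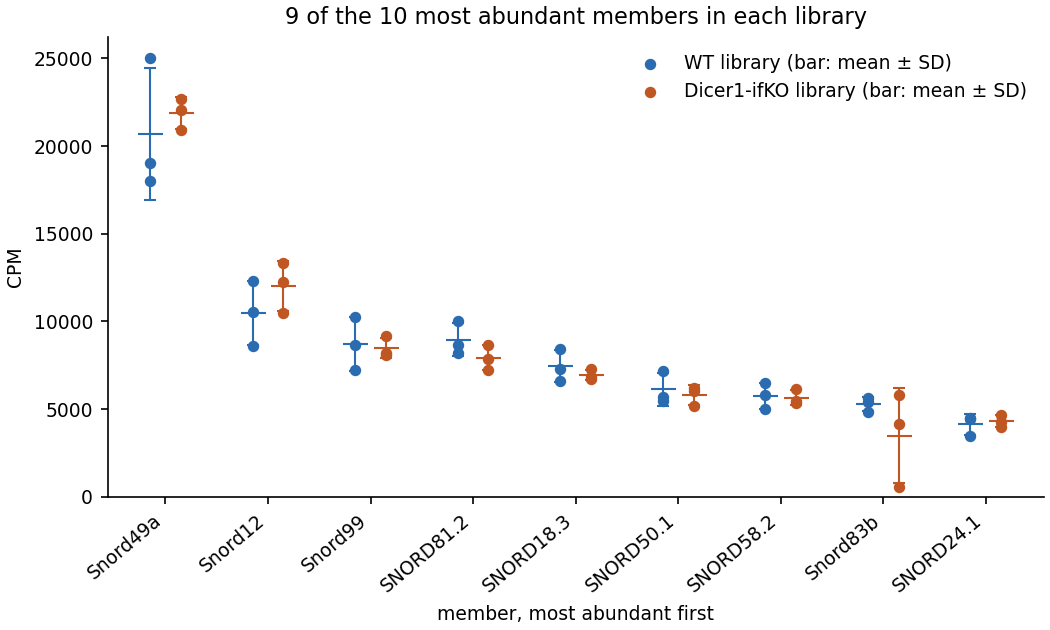
CPM of 9 of the 10 most abundant members in each library, with the mean and SD over 3 libraries per genotype. WT and Dicer1-ifKO points overlap for each member, and the lowest single value is that of Snord83b in 1 Dicer1-ifKO library, at 536 CPM.

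Between the genotypes, 0 of the 141 members were called lower and 0 higher at an adjusted p of 0.05 in edgeR's quasi-likelihood test. Over all 6539 features tested, 53 (0.811%) were called, 52 lower and 1 higher. Those features hold the members and also longer rows that count member reads again, such as the Nop56 span. The shares and medians over all features given here and below are therefore not separate from the members. DESeq2 also called 0 members, where it called 63 of all features (0.963%). At an unadjusted p of 0.05, edgeR had 0 members lower and 1 higher (Snord53), against 7.81% of all features in either direction. All 141 members passed the filter on low counts.

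The median log2 change of the members was -0.03, with the middle 50% of them between -0.10 and 0.05. Over all tested features the median was -0.05, over 74 H/ACA snoRNA rows -0.08 and over 22 rows of the left-out imprinted regions -0.04. Without the 5 Snord113 rows of chromosome 12 the members' median was -0.02, and without WT replicate 1 it was -0.09 where that of all features was 0.00. The change was below 0 in 85 of 141 members (60.3%) and in 56.8% of all features, but with DESeq2's scaling the members' median was 0.02 and that of all features 0.00. In 123 members (87.2%) the change lay within 0.2 of 0 on the log2 scale. It did so in 86.4% of the left-out imprinted rows and in 52.1% of all features. The median SE was 0.15 for the members, 0.15 for the left-out imprinted rows and 0.27 for all features, which are mostly far less abundant.
Among 546 miRNA rows tested in the same fit, 36 were called lower and 0 higher, with a median of -0.24.

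The intervals give the size of change that these libraries could resolve. The 95% interval of the log2 change lay within -0.5 and 0.5 for 104 members and within -1 and 1 for 127. The other members had intervals reaching a 2-fold change or more, up to 4.87 for Snord7, so that for them a sizeable difference was not detectable with 3 libraries a group.

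**Figure D3:**
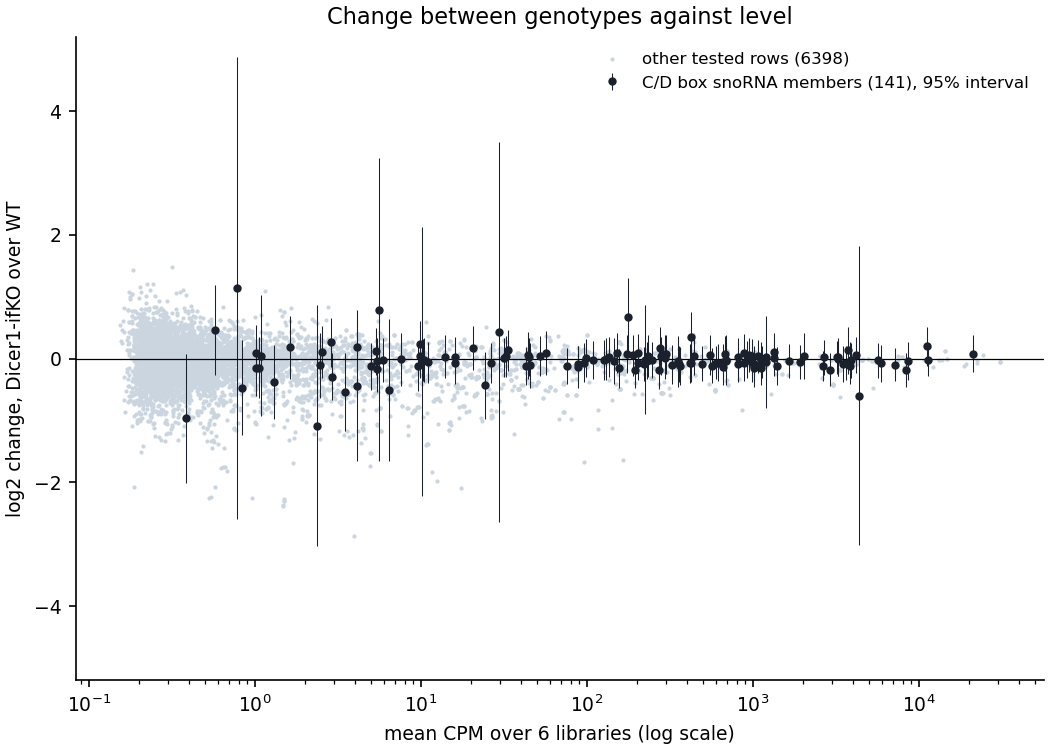
Log2 change (Dicer1-ifKO over WT) against mean CPM on a log axis, for the 141 members with 95% intervals (black) and the 6398 other tested rows (grey). Most members lie within 0.2 of 0, and the wide intervals belong to members that varied between libraries of a genotype, such as Snord7 and Snord83b.

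Groups that did not overlap were found for 5 members, all lower in Dicer1-ifKO, and for 0 members in the other direction. Over all tested features this held for 9.27% (lower) and 3.73% (higher), so 5 of 141 is below the background share. The 5 were Snord14a, SNORD12.2, Snord49b, Snord92 and Snord104, and the adjusted p of each was at least 0.807 in edgeR.
SNORD12.2, a Zfas1 snoRNA, stood at 2973, 3406 and 2919 CPM in the WT and 2496, 2888 and 2815 CPM in the Dicer1-ifKO libraries (log2 change -0.18 ± 0.12). The gap between the groups was small beside their ranges.
Snord49b, next to Snord49a in the same host, gave 2611, 2846 and 2834 CPM in the WT and 2535, 2526 and 2569 CPM in the Dicer1-ifKO libraries (-0.12 ± 0.12). Its 3 Dicer1-ifKO libraries were close to one another.
Snord92 stood at 79.5 ± 1.795 CPM in WT mice and 73.5 ± 1.03 CPM in Dicer1-ifKO mice, and Snord104 at 230 ± 8.56 and 215 ± 4.78 CPM (SD, n = 3). Snord14a, a copy of U14 in an intron of Rps13, stood lower, at 3.23 ± 0.175 and 2.63 ± 0.313 CPM.

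By role, the 7 members listed here under rRNA processing had 0 calls and a median log2 change of -0.13 (Snord13, Snord118, Snord22 and 4 copies of Snord14, the U14 RNA needed for 18S maturation). The most abundant, SNORD14.2, SNORD14.1 and Snord14e, all in Hspa8, had changes of -0.13, -0.08 and -0.06.
Snord118 (U8), needed to mature 5.8S and 28S rRNA, stood at 18.1, 17.2 and 23.0 CPM in the WT and 22.3, 22.4 and 20.7 CPM in the Dicer1-ifKO libraries. Snord13 (U13), which pairs with 18S rRNA, stood at 29.5, 31.9 and 22.3 CPM in the WT and 27.5, 21.0 and 13.7 CPM in the Dicer1-ifKO libraries, a log2 change of -0.43 ± 0.24 (edgeR adjusted p = 0.80). Snord13 had its lowest value in Dicer1-ifKO replicate 3, and the groups overlapped for both.

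The 4 guides of U6 small nuclear RNA were rare, at a summed 10.1 ± 4.82 CPM in WT mice and 9.70 ± 2.14 CPM in Dicer1-ifKO mice. SNORD94.1 measured 8.67, 2.78 and 2.89 CPM in the WT and 3.64, 3.18 and 3.77 CPM in the Dicer1-ifKO libraries. Its change of -0.44 rested on WT replicate 1, and was 0.31 without that library. Snord67 stood at 3.83 ± 0.786 and 4.38 ± 0.395 CPM and Snord8 at 0.972 ± 0.451 and 0.706 ± 0.228 CPM.
The 2 guides of 5.8S rRNA summed to 1916 ± 154 CPM in WT mice and 1999 ± 91.8 CPM in Dicer1-ifKO mice. Snord71 stood at 1061 ± 80.6 CPM in WT mice and 1086 ± 35.3 CPM in Dicer1-ifKO mice, and Snord96a at 854 ± 126 and 913 ± 67.8 CPM.

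Of 7 members without a known rRNA or snRNA target, 0 were called and the median change was -0.09. SNORD101.1 stood at 812 ± 122 and 824 ± 82.7 CPM and SNORD83.1 at 90.9 ± 4.56 and 85.2 ± 4.67 CPM. The remaining 114 members outside the Snord113 family, which include the guides of 18S and 28S rRNA, held 94.2% of the member counts. Their summed level was 161819 ± 19274 CPM in WT mice and 160837 ± 8703 CPM in Dicer1-ifKO mice, their median change -0.02, and 0 were called. The 7 Snord113 rows had a median of -0.14 and 0 calls.

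Grouped by host, 0 snoRNAs of any of the 8 hosts listed were called. The 9 snoRNAs of Gas5, a noncoding host whose introns carry them in series, held 17.98% of the member counts and summed to 28114, 35000 and 31171 CPM in the WT and 27829, 31902 and 30622 CPM in the Dicer1-ifKO libraries. Dicer1-ifKO replicate 1 was the lowest of the 6, and the other 2 Dicer1-ifKO libraries lay inside the WT range. Its most abundant members SNORD81.2, SNORD24.1 and SNORD75.1 had log2 changes of -0.18, 0.06 and -0.12. The 8 snoRNAs of Snhg1, another noncoding host, summed to 6651 ± 1074 and 6695 ± 170 CPM, with WT replicate 1 the lowest at 5417 CPM. Its most abundant members SNORD31.1, SNORD30.1 and SNORD25.1 had log2 changes of 0.04, 0.10 and -0.15, none past the test.

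Among hosts that code for ribosomal proteins, the 4 snoRNAs of Rpl13a summed to 4574 ± 528 CPM in WT mice and 4482 ± 338 CPM in Dicer1-ifKO mice, and the 4 of Rpl7a to 3001 ± 287 and 2939 ± 128 CPM. Snord32a, Snord34 and Snord35a in Rpl13a had log2 changes of -0.02, -0.09 and 0.02, and SNORD24.2, SNORD36.3 and SNORD36.2 in Rpl7a of 0.03, -0.05 and -0.08. The medians were -0.05 and -0.06 over the snoRNAs of these hosts. The 35 members in ribosomal protein genes together had a median of -0.03, the 36 in noncoding hosts one of 0.02, and the 59 in other protein-coding genes one of -0.02. Among the latter, the 3 snoRNAs of Hspa8 summed to 2598 ± 235 and 2434 ± 145 CPM, and those of Nop56, itself a C/D snoRNP protein gene, to 7907 ± 1170 and 8004 ± 804 CPM. Of the latter, Snord110 had a log2 change of 0.13, Snord57 of -0.09 and SNORD56.1 of -0.05. The 95% interval of each reached to both sides of no change, so their signs were not resolved. The 3 snoRNAs of Rack1 summed to 2525 ± 312 and 2590 ± 180 CPM, and the 2 of Rps12 to 960 ± 142 and 969 ± 84.9 CPM. Their log2 changes were -0.02, 0.10 and 0.06 for SNORD95.1, Snord96a and Snord95, and 0.02 and -0.03 for SNORD101.1 and Snord100.

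Counts on most host gene spans were almost wholly those of their snoRNAs. Of 60 host spans found, 52 had over 90% of their counts in member rows. Among the others were Rpl3 (23.2%), the host of Snord83b, and Wdr43 (57.4%), the host of Snord53. On the Gas5 span, 8781524 of 8781543 counts lay in members. The spans of C/D snoRNP protein genes could therefore not be read as their mRNA: Nop56 had 99.96% and Nop58 99.99% of its counts in members. Fbl had 4 counts in all, Snu13 (listed as Nhp2l1) 7, and the assembly factors Nufip1, Ruvbl1, Ruvbl2, Znhit3, Znhit6, Pih1d1 and Rpap3 between 3 and 12, too few for the test.

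Most members varied little between libraries. The highest library was under 1.5 times the lowest for 109 members and over 2 times for 17, with a median of 1.34. Of those 17 members, 11 were over 95 nt long, a length only 17 of the 141 had. The long rows held 0.313% of the member counts.

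Snord83b, which lies in an intron of Rpl3 and has no known target, was the abundant exception. It stood at 5380, 5625 and 4842 CPM in WT, at 5782 and 4152 CPM in Dicer1-ifKO replicates 1 and 2, and at 536 CPM in Dicer1-ifKO replicate 3. In raw counts that library had 25144, where the other 5 had 220767 to 268872. It was 7.75 times below the lowest other library. Of 962 features with a mean over 20 CPM, Snord83b was the single one more than 4-fold from its median in that library.

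The rest of the Rpl3 span did not move with it. Which rows hold those other counts was not examined, so they are not read as Rpl3 mRNA. Counts on the span outside Snord83b stood at 12209, 15777 and 14886 CPM in the WT and 13531, 15565 and 14505 CPM in the Dicer1-ifKO libraries, with replicate 3 inside the range of the others. Snord83b held 24.5% to 30.6% of the Rpl3 span in WT, 29.9% and 21.1% in Dicer1-ifKO replicates 1 and 2, and 3.56% in replicate 3. Its log2 change of -0.60 ± 0.89 (edgeR adjusted p = 0.98) was -0.09 without that library. Without Snord83b the members took 16.3% ± 0.539 of all counts in WT and 16.9% ± 0.295 in Dicer1-ifKO (exact permutation p = 0.2).

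SNORD16.1, which lies in Rpl4 beside the abundant SNORD18.3, stood apart in another library. It measured 41.2, 19.3 and 15.6 CPM in the WT and 79.8, 17.2 and 5.37 CPM in the Dicer1-ifKO libraries, with replicate 1 the highest and replicate 3 the lowest of all 6. Its log2 change was 0.43, and -1.17 without Dicer1-ifKO replicate 1.
Snord89 and Snord7 had the same library highest. Snord89 stood at 6.34, 3.79 and 2.22 CPM in the WT and 15.3, 3.97 and 2.17 CPM in the Dicer1-ifKO libraries, and Snord7 at 0.981, 0.335 and 0.108 CPM in the WT and 2.75, 0.320 and 0.192 CPM in the Dicer1-ifKO libraries. Their log2 changes of 0.79 and 1.14 were -0.42 and -0.88 without Dicer1-ifKO replicate 1, and that of Snord7 was 2.20 without WT replicate 1.

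WT replicate 1 was high in most of the long members, 14 of 17 of which lay above their mean over the 6 libraries there. Snord90, the long member with the most counts (119414 of 152734), was not high there. It had 16990 raw counts in WT replicate 1 and 15072 to 24512 in the other 5 libraries. Snord22, the U22 RNA of 18S processing, stood at 6.68 CPM in WT replicate 1 and at 1.23 to 1.65 CPM in the other 5 libraries. Relative to each member's mean over the 6 libraries, the median of the 17 long members was 0.53 (log2) in WT replicate 1 and 0.23 in Dicer1-ifKO replicate 1, and from -0.21 to -0.09 in the other 4. The 124 members of at most 95 nt had a median of -0.14 in WT replicate 1. The log2 change of Snord23, the rarest member, was -0.97 and became -0.28 without WT replicate 1. Rows named as 5S, 5.8S or mitochondrial rRNA took 0.537% of the counts in WT replicate 1 and 0.367% in Dicer1-ifKO replicate 1, against 0.290% to 0.331% in the other 4, and mitochondrial tRNA took 0.433% and 0.255%, against 0.163% to 0.229%. These shares were thus highest in the same 2 libraries as the median of the long members, and their part in these values was not tested.

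**Figure D4:**
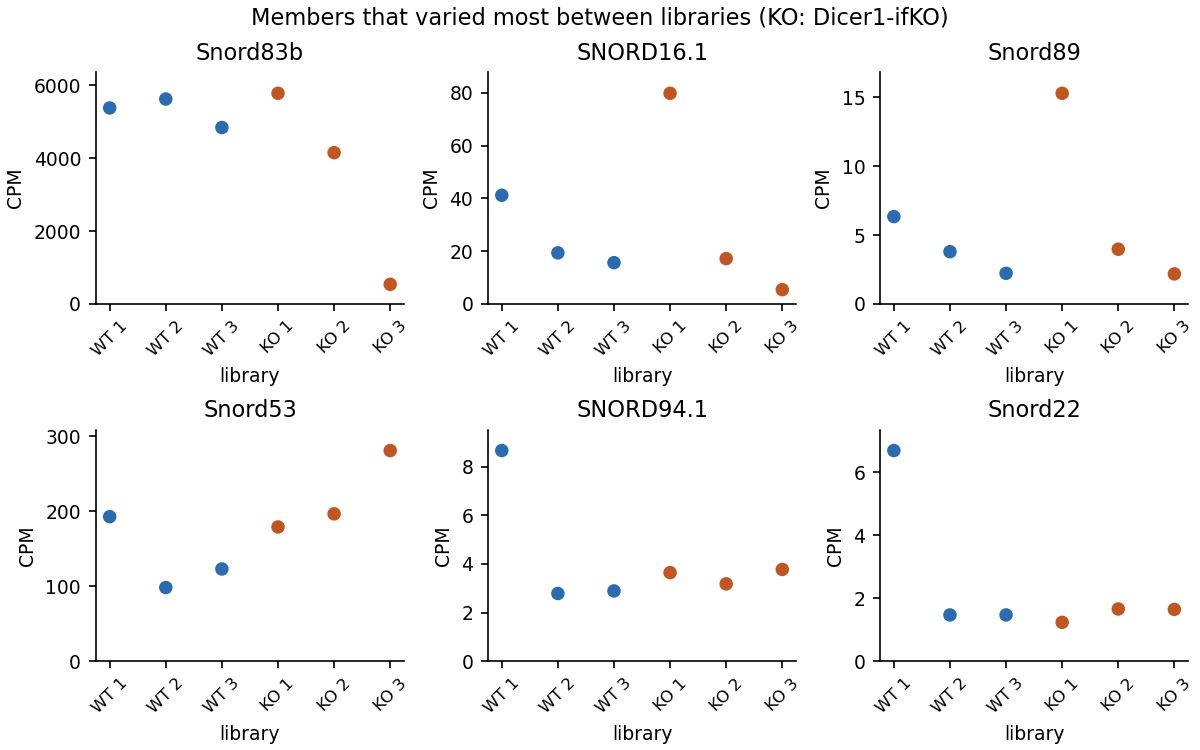
CPM in each of the 6 libraries for 6 members that varied between libraries, each on its own axis from 0 (WT in blue, Dicer1-ifKO in orange). Snord83b falls to 536 CPM in Dicer1-ifKO replicate 3, SNORD16.1 and Snord89 are highest in Dicer1-ifKO replicate 1, and SNORD94.1 and Snord22 are highest in WT replicate 1.

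**Figure D5:**
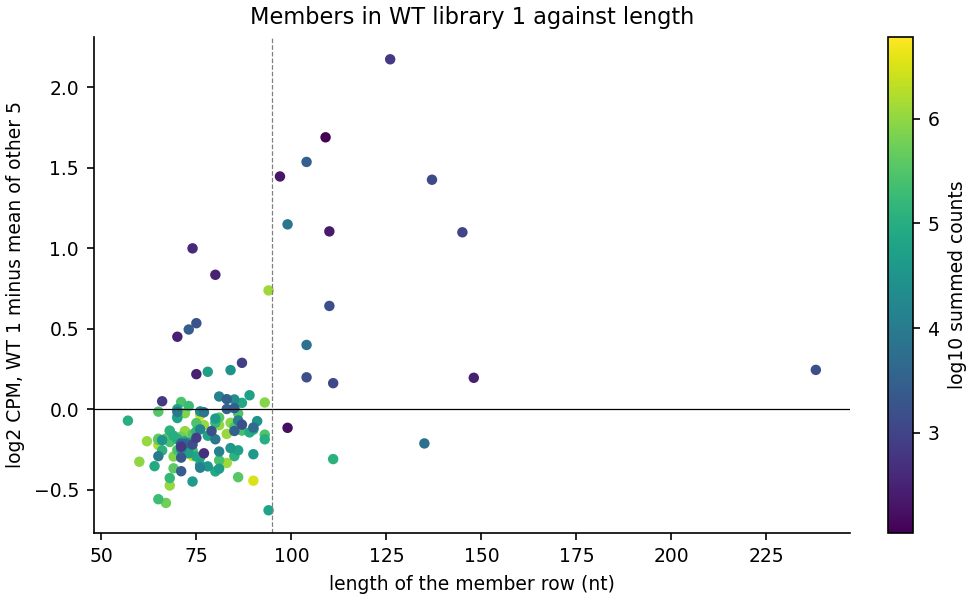
Log2 CPM in WT replicate 1 minus the mean of the other 5 libraries for each member, against the length of its row, coloured by summed counts. Members over 95 nt (right of the dashed line) lie mostly above 0 and hold few counts, and most shorter members lie slightly below 0.

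Snord53, in Wdr43, had the highest change among members of at least 1000 counts apart from Snord89. It stood at 193, 98.0 and 123 CPM in the WT and 179, 196 and 281 CPM in the Dicer1-ifKO libraries. WT replicate 1 lay inside the range of the Dicer1-ifKO libraries, and the other 2 WT libraries lay below it. The log2 change was 0.67 ± 0.27 (edgeR unadjusted p = 0.042, adjusted p = 0.59).
Without WT replicate 1 it was 0.98 ± 0.19 and passed the test (edgeR adjusted p = 0.014), as did 2.02% of all features then tested. It missed the threshold without each of the other 5 libraries, with adjusted p from 0.66 to 0.99. Snord92, in the same host gene, had a log2 change of -0.11.

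For 2 members the annotation used for counting has a miRNA row within the snoRNA, whose counts can be set beside those of the whole row. GENCODE also names SNORD79.1 as Mir5117 and SNORD93.1 as Mir3096, but no miRNA row lay within them. The row of miR-3535 covers bases 1 to 26 of SNORD20.1, capitals in the sequence above, and held 93.5% of the counts of the snoRNA row. By library this was 91.9%, 95.1% and 94.0% in WT and 94.2%, 92.5% and 93.3% in Dicer1-ifKO. The row of miR-5121 covers bases 3 to 23 of Snord33 and held 72.9%, with 72.6%, 72.2% and 71.5% in WT and 74.1%, 72.5% and 74.9% in Dicer1-ifKO. In both, most counts were also counted in the row at the 5′ end with the C box, in every library. It is not stated whether a read had to lie wholly within a row, so longer reads may be among them.
The log2 changes were -0.16 ± 0.15 for SNORD20.1 and -0.07 ± 0.15 for Snord33, and those of the rows mmu-miR-3535 and mmu-miR-5121 were -0.17 and -0.03. None of the 4 passed the test.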

How the data were processed

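Small RNA of hippocampus was sequenced by the authors in 3 WT and 3 Dicer1-ifKO libraries, each pooling 3 mice (9 mice per genotype from the labels; the series text gives another total). The deposited files hold raw counts per annotated feature and a normalized signal, which was the raw count times 1 constant per library. Per the submitters' processing notes, the tools were BWA, SAMtools 0.1.18, CASAVA 1.8.2 and DESeq2, on build GRCm38 (mm10). The counter, its strand setting and its handling of multiply mapped reads are not stated there or in the labels. In the files a read was counted in each of the features that lay over one another at its place. Whether it had to lie wholly within a feature is not stated either.

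Rows that repeated the gene name, chromosome, strand and counts of an earlier row (13508) were removed, whatever their start and end. Raw counts of the features passing filterByExpr (minimum count 10) were scaled by TMM and tested with edgeR 4.0.16 (robust quasi-likelihood, two-sided, Benjamini-Hochberg over 6539 features, threshold 0.05) in R 4.3.3, with no covariate. Each p-value rests on the spread between these pools. DESeq2 1.42.0, other scalings, filters, a replicate block and each library left out were the alternatives, and the scripts were tested on simulated data. Shares were compared by exact permutation over the 6 libraries, where the smallest possible p was 0.1, so that no share could pass the threshold of 0.05. CPM are the TMM-scaled counts.

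Members and lists were chosen with earlier results of these data known. Named were the 10 most abundant members, up to 5 with the largest changes in each direction among those with a mean of at least 50 counts and groups that did not overlap, called members, and up to 3 of each list, apart from a few that are not reported here. Snord53, Snord83b, SNORD16.1, Snord7, Snord89, Snord22, Snord23, Snord90, SNORD20.1, Snord33, Snord13 and Snord118 were chosen after their values were seen, where the rule does not name them. Coordinates, hosts and sequences are from GENCODE M21.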

Additional observations from a re-analysis of the deposited data

How the results depend on the processing

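The count of members called lower was 0 in each of the settings run. The count called higher was 0 in all but the fit without WT replicate 1, where it was 1 (Snord53, log2 change 0.98), so that the counts without 1 library ranged from 0 to 1. Snord53 was the single named member that crossed the threshold in any setting. The median log2 change of the members ranged from -0.09 (without WT replicate 1) to 0.05 (without WT replicate 2), less than the spread of library medians (0.08 on the log2 scale) from its value of -0.03. It was 0.02 with DESeq2, 0.03 with library totals alone and 0.01 with TMM over snoRNA rows. That last scaling sets the members largely against themselves, since they held 98.6% of the snoRNA counts, so it cannot test their level. With TMM over the snoRNA rows that are not members the median was also 0.01. The share of the members had a log2 ratio of 0.03, of 0.01 to 0.06 without 1 library, and of 0.20 relative to the miRNA rows. The replicate numbers were not taken to pair the libraries, since same-numbered deviations correlated from -0.18 to 0.08 over all features. Over the members alone they correlated at 0.43, 0.17 and 0.39, a hint of pairing from the data and not from the design, although Dicer1-ifKO replicate 2 correlated best with WT replicate 3 (0.32). With a replicate block, 0 members were called, the median was -0.02 and the calls over all features fell from 53 to 6. Over all features the calls ranged from 1 (without Dicer1-ifKO replicate 2) to 143 (without WT replicate 1). For a list of 51 members, without Snord22, Snord13 and Snord118, 107 of 813 alternative values had the other sign while both intervals held 0. These were not counted as reversed. Wide intervals were found both in rare members (Snord7) and in an abundant one (Snord83b), so that depth alone does not set the precision.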
